A study of Mus musculus with 22 samples.

Results

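The 10 genes described here make up an early lymphoid program: Dntt, Il7r, Rag1, Rag2, Ebf1, Pax5, Cd79a, Cd79b, Vpreb1 and Igll1. They were taken by name from the 47311 genes to which the transcripts of the series could be assigned, and all 10 were found. RNA was sequenced in 22 libraries of FACS-sorted bone marrow cells, of which 4 came from long-term hematopoietic stem cells (LT-HSC; CD34-Flt3- cells of the Lin-Sca1+Kit+ gate) and 18 from common myeloid precursors (CMP), granulocyte monocyte precursors (GMP) and megakaryocyte erythrocyte precursors (MEP). KO mice were Arid1a f/f;Mx1-Cre+ and WT mice were their Arid1a f/f;Mx1-Cre- littermates, matched for sex, so the WT mice carry the floxed allele as well. Both genotypes received poly(I:C), in 5 doses of 300 µg starting at 8 to 14 weeks of age, and cells were sorted 4 weeks after it. Mx1-Cre is driven by an interferon-inducible promoter, is active in other cells than blood cells, and removed exon 9 of Arid1a. The precursor libraries came from 3 WT mice (300, 305 and 309) and 3 KO mice (301, 304 and 308), each of which gave CMP, GMP and MEP cells. The LT-HSC libraries came from other mice (WT S245 and S269, KO S244 and S270) and were made with a cDNA kit for ultra-low RNA input, so a difference between LT-HSC and precursor levels cannot be told apart from the kit and the mice.

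A lymphoid cell builds its antigen receptor by cutting and rejoining gene segments in the DNA. RAG1 and RAG2 form the enzyme that cuts, and the terminal transferase encoded by Dntt adds bases without a template at the joints. Il7r encodes the α chain of the interleukin-7 receptor, which carries survival and growth signals to early lymphocytes. Ebf1 and Pax5 encode transcription factors that set and hold the B cell fate. Vpreb1 and Igll1 encode the surrogate light chain of the pre-B cell receptor, and Cd79a and Cd79b its signalling chains. Some bone marrow precursors outside the B and T lineages already carry transcripts of Dntt, Rag1 or Il7r, which is called lymphoid priming.

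The main difference was in CMP cells. Il7r, Rag1 and Rag2 were 8.81-, 6.25- and 6.21-fold higher in KO than in WT CMP cells, with every KO mouse above every WT mouse, and Cd79b was lower. The B lineage factors Ebf1 and Pax5 and the other pre-B cell receptor genes were at or below 1.33 TPM in every CMP library. None of them was called, and Igll1 was too low to test. In GMP and MEP cells no member was called higher in KO. Interaction tests placed the effect on Il7r, Rag1 and Rag2 in CMP above that in MEP, and the effect on Rag2 in CMP above that in GMP. For Il7r the difference between CMP and GMP was called but was lost in 5 alternatives, and Rag1 was too low in GMP to judge. Levels are given as TPM, a transcript abundance scaled for transcript length and library size, and differences as log2 fold changes from edgeR's quasi-likelihood test on estimated counts, called at a false discovery rate (FDR, the Benjamini-Hochberg adjusted p over all genes tested) under 0.1.

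The libraries held 40804031 to 65930737 estimated counts on genes. Library WT S245 of LT-HSC stood apart, with at least 10 counts on 27191 genes against 18504 to 22407 in the other LT-HSC libraries. As a check of the sorts, the summed level of 8 GMP identity genes was 3980 to 4830 TPM in WT CMP, 31500 to 37100 TPM in WT GMP and 27.2 to 62.2 TPM in WT MEP. Arid1a was at 77.5 to 84.1 TPM in WT and 70.8 to 80.4 TPM in KO CMP, and at 57.7 to 78.3 TPM in WT and 42.9 to 46.5 TPM in KO GMP. It was at 51.5 to 53.4 TPM in WT and 45.7 to 52 TPM in KO MEP, and at 23.7 and 29.9 TPM in WT against 10.7 and 10.9 TPM in KO LT-HSC. It was called lower in KO CMP (log2 fold change -0.22, edgeR adjusted p = 0.0284), GMP (-0.40, adjusted p = 0.0246) and MEP (-0.14, adjusted p = 0.0836). In LT-HSC it was not called (-1.14, adjusted p = 0.421). These values cover the whole gene and do not measure the loss of exon 9. In such bulk samples, a larger share of cells that carry a transcript and more transcript per cell cannot be told apart.

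The members that were higher in KO CMP lie at 2 loci. Il7r (ENSMUSG00000003882) is on chromosome 15 from 9505788 to 9530176, minus strand, and Rag1 (ENSMUSG00000061311, chromosome 2, 101638282 to 101649501, minus strand) and Rag2 (ENSMUSG00000032864, chromosome 2, 101624718 to 101632529, plus strand) face each other across a short interval, all on GRCm38. The RefSeq promoter windows of GRCm38.p6, from 250 bases before to 50 after the annotated start, are printed for these 3 genes because they moved together, 5′ to 3′ on the strand of each gene. Capitals mark exact matches on either strand to the letters of an E-box bound by E2A (CAGGTG), an Ikaros core (TGGGAA) or a Runx motif (TGTGGT); an EBF1 palindrome was searched too and was found in none of the 3.
Il7r, chr15:9529827-9530126, minus strand: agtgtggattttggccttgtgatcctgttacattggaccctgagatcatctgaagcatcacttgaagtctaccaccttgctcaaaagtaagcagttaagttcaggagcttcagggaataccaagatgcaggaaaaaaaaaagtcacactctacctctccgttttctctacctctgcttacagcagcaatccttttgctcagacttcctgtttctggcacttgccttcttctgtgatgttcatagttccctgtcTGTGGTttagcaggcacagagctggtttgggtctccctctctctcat
Rag1, chr2:101649483-101649782, minus strand: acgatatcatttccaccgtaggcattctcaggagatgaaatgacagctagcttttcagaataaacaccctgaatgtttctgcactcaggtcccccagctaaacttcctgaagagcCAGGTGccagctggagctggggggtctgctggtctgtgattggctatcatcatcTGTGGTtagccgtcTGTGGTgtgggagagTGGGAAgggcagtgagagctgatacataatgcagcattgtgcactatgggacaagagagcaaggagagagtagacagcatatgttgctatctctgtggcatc
Rag2, chr2:101624462-101624761, plus strand: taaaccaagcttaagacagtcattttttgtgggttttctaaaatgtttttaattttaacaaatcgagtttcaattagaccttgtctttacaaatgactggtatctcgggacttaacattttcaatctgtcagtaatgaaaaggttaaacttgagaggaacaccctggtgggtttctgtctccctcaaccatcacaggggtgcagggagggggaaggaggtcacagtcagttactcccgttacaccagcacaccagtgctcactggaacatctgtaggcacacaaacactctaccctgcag

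The Rag1 window held the E-box once, the Ikaros core once and the Runx motif at 2 places, and the Il7r window held the Runx motif once, just past the RefSeq start. RefSeq starts Il7r further in than the gene coordinates given above, so the printed Il7r window lies wholly inside that gene model. None of these motifs was in the Rag2 window. Among all 32851 promoter windows of this length, 20.2% held the E-box, 25.6% the Ikaros core, 16.8% the Runx motif and 0.904% the EBF1 motif, while the broad E-box CANNTG, which takes in the E2A motif, was in 72.3%. Over the 9 members with a window in the table, no EBF1 motif was found, and the E2A E-box was in those of Rag1, Cd79a, Igll1 and Vpreb1. These matches are a description of the letters only.

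In CMP cells, Il7r was at 0.552, 1.03 and 0.902 TPM in WT mice 300, 305 and 309 and at 6.56, 4.48 and 12.3 TPM in KO mice 301, 304 and 308. The lowest KO library was 4.36 times the highest WT library. This gave a log2 fold change of 3.14 (SE 0.40, edgeR adjusted p = 0.000945), an 8.81-fold difference on 70.0 to 127.0 estimated counts in WT and 564.4 to 1338.0 in KO.

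Rag2, the partner subunit of the recombinase, was at 1.63, 1.64 and 1.88 TPM in WT CMP and at 11.1, 9.72 and 16 TPM in KO CMP. The WT mice lay close together, and each KO mouse was at least 5.18 times the highest of them. The log2 fold change of Rag2 was 2.63 (SE 0.22, edgeR adjusted p = 0.000133), or 6.21-fold.

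Rag1, the catalytic subunit, had lower levels throughout, at 0.156, 0.148 and 0.257 TPM in WT CMP against 0.969, 0.433 and 2.32 TPM in KO CMP. Its groups did not overlap either, but the KO mice were far apart. The log2 fold change was 2.64 (SE 0.57, edgeR adjusted p = 0.0131), on 39.0 to 52.0 estimated counts in WT and 116.0 to 536.0 in KO. In all 3 genes KO mouse 308 was the highest and KO mouse 304 the lowest.

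Rag2 reads were split by kallisto between Rag2-201, of 3424 bases, and Rag2-202, of 1857 bases. In WT CMP the shorter transcript took 66.2, 74.8 and 52.0 estimated counts and the longer took 92.8, 72.1 and 91.0. In KO CMP both were higher, with 384.9 to 653.2 counts on Rag2-202 and 316.3 to 593.7 on Rag2-201, so the difference did not rest on 1 transcript model. In every MEP library Rag2-202 was listed at 0, and all Rag2 counts there were on Rag2-201.

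Rag1 and Rag2 both overlap B230118H07Rik in the annotation, Rag1 on the same strand, and the sources used here do not say whether the counting used strand. B230118H07Rik was at 37.4 ± 1.17 TPM (SD, n = 3) in WT and 31.9 ± 2.03 TPM (SD, n = 3) in KO CMP. The part of its reads in the levels of Rag1 and Rag2 was not tested.

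Dntt, the other gene of receptor diversification, was above Rag1 and Rag2 in every CMP library. It was at 30.3, 76.2 and 37.6 TPM in WT and at 81.8, 50.6 and 146 TPM in KO mice. WT mouse 305 was above KO mouse 304, and the groups overlapped. The log2 fold change was 0.85 (SE 0.42, edgeR adjusted p = 0.222, 95% interval 0.03 to 1.66) and was not called. Without WT mouse 305 it was 1.35 and called (adjusted p = 0.0648), as it was without KO mouse 304 (1.14, adjusted p = 0.0799) and with no filter for low counts (0.86, adjusted p = 0.0904).

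**Figure D1:**
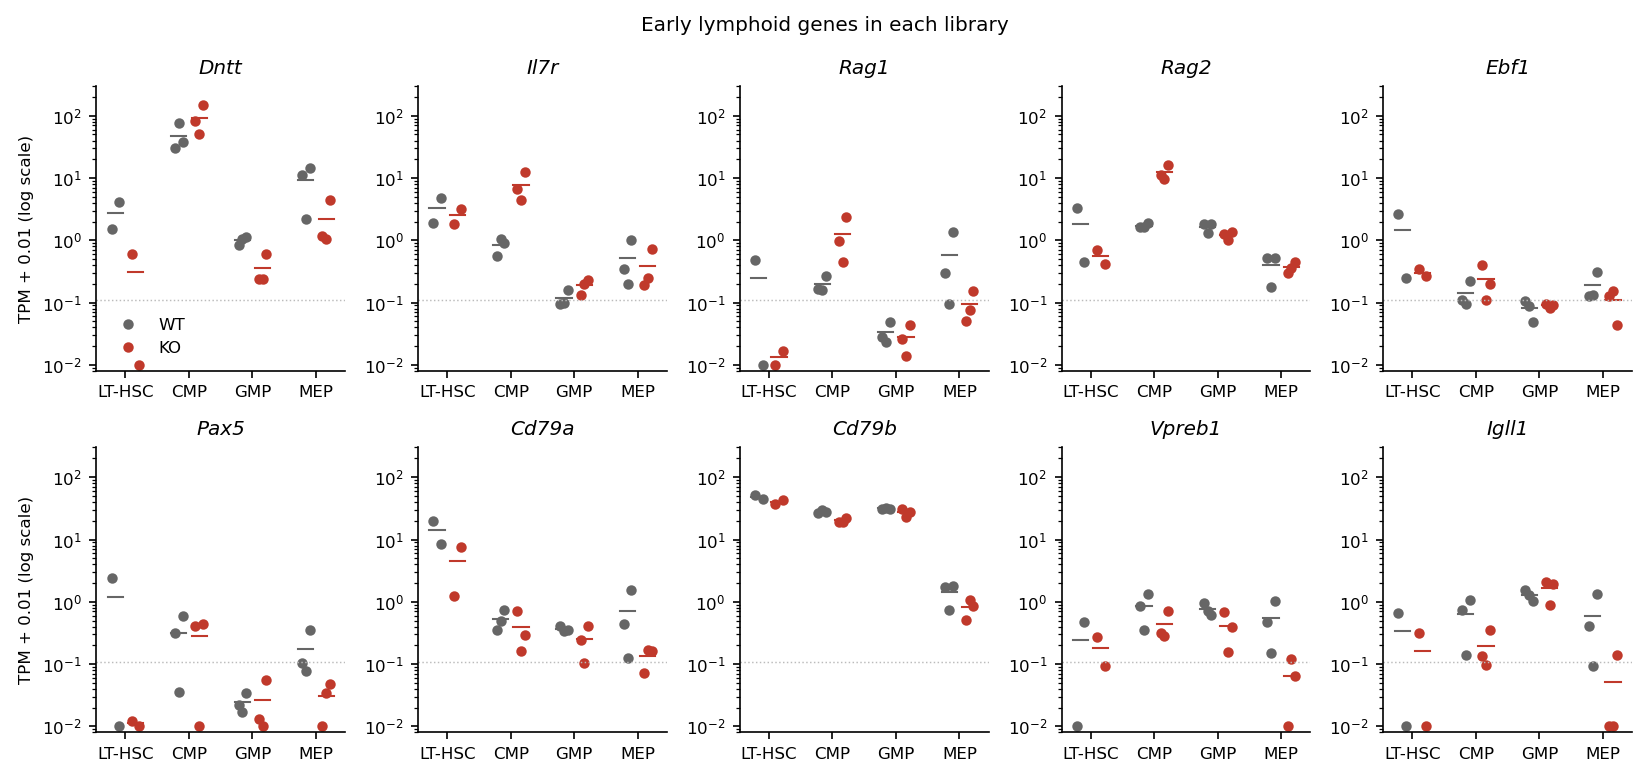
TPM + 0.01 on a log axis for each of the 10 genes in each library (points; grey, WT; red, KO), with the group mean as a short line; the dotted line marks 0.1 TPM (drawn at 0.11). In CMP the KO points of Il7r, Rag1 and Rag2 lie above all WT points, whereas those of Dntt overlap and Ebf1, Pax5, Cd79a, Vpreb1 and Igll1 stay at or below 1.33 TPM.

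Among the pre-B cell receptor genes, only Cd79b, the Igβ signalling chain, was abundant in CMP. It was at 26.8, 29.6 and 27.3 TPM in WT and at 19.3, 19.4 and 21.9 TPM in KO mice, with no overlap. Its log2 fold change was -0.59 (SE 0.09, edgeR adjusted p = 0.00278). Its partner Cd79a, the Igα chain, was at 0.338 to 0.722 TPM in WT and 0.151 to 0.706 TPM in KO CMP, far below Cd79b in each library, and its log2 fold change of -0.56 (95% interval -1.65 to 0.53) was not called.

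The surrogate light chain gene Vpreb1 was at 0.844, 0.337 and 1.33 TPM in WT and 0.307, 0.272 and 0.712 TPM in KO CMP, on 5.6 to 24.5 estimated counts, and was not called (log2 fold change -0.98, 95% interval -2.14 to 0.18). Igll1 did not reach the count needed for a test in CMP, with 2.5 to 22.8 estimated counts. Vpreb1 has a near-identical copy, Vpreb2, between which reads can be split, and it overlaps Top3b on the other strand. Vpreb2 was listed at 0 in 5 of 6 CMP libraries.

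Ebf1 was at 0.0835 to 0.213 TPM in WT and 0.099 to 0.395 TPM in KO CMP, and Pax5 at 0.025 to 0.588 TPM in WT and 0 to 0.429 TPM in KO CMP. These levels rest on 11.1 to 27.3 estimated counts for Ebf1 and 0.0 to 29.2 for Pax5. The 95% intervals of the log2 fold changes ran from -0.97 to 1.19 for Ebf1 and from -2.93 to 0.62 for Pax5. A rise of the size seen for Rag2 lay above both intervals, while differences inside an interval could not be told from none.

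In all, 9 of the 10 members could be tested in CMP, of which 3 were higher and 1 lower in KO. Over all 17214 genes tested there, 23.4% were called in either direction. The median log2 fold change was 0.11 over the 9 members and -0.00 over all genes.

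In GMP cells, Dntt was the member that changed. It was at 0.843, 1.05 and 1.11 TPM in WT and at 0.226, 0.231 and 0.594 TPM in KO mice, without overlap. The KO effect was -1.35 on the log2 scale (SE 0.40, edgeR adjusted p = 0.0331), on 69.0 to 82.0 estimated counts in WT and 17.0 to 47.0 in KO. Without WT mouse 309 the call was lost, at -1.27 (adjusted p = 0.107), as it was when all 18 precursor libraries shared 1 fit (adjusted p = 0.343). Away from left-out libraries, the log2 fold change ran from -1.45 to -1.33 in the alternatives.

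Il7r was at 0.0837 to 0.148 TPM in WT GMP and 0.125 to 0.222 TPM in KO GMP. Its log2 fold change of 0.87 (95% interval 0.06 to 1.68, edgeR unadjusted p = 0.0642, adjusted p = 0.161) was not called. Rag2 was at 1.31 to 1.84 TPM in WT and 0.984 to 1.35 TPM in KO GMP (log2 fold change -0.27, 95% interval -0.71 to 0.17). Cd79b, at 31.3 to 31.8 TPM in WT and 23.0 to 31.3 TPM in KO, differed by -0.06 on the log2 scale, with a narrow interval of -0.23 to 0.12.

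Igll1 was the surrogate light chain gene with the clearer signal in GMP, at 1.01 to 1.55 TPM in WT and 0.868 to 2.06 TPM in KO, and was not called (log2 fold change 0.51, 95% interval -0.18 to 1.21). Vpreb1 and Cd79a stayed below 1 TPM in every GMP library and Ebf1 was near absent, with means of 0.0707 TPM in WT and 0.0803 TPM in KO. Rag1 and Pax5 were too low to judge in GMP: Rag1 had 1 to 10 estimated counts and Pax5 0 to 15. With 8 members tested, 1 was lower and none higher in KO GMP, beside 33.9% of 16383 genes called in either direction.

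In MEP cells, Dntt and Rag1 were lower in KO, and both calls were lost when any of several single mice was left out. Dntt was at 11.3, 2.18 and 14.5 TPM in WT mice 300, 305 and 309 and at 1.17, 1.05 and 4.44 TPM in KO mice 301, 304 and 308. WT mouse 305 lay below KO mouse 308, so the groups overlapped. The log2 fold change was -2.06 (SE 0.75, edgeR adjusted p = 0.0898).

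Rag1 was at 0.285, 0.0838 and 1.34 TPM in WT MEP and at 0.0404, 0.0667 and 0.144 TPM in KO MEP. Mouse 309 alone carried most of the WT signal, with 285.0 estimated counts against 18 in mouse 305. The log2 fold change was -2.75 (SE 0.94, edgeR adjusted p = 0.0735). Without WT mouse 309 both calls were lost, with log2 fold changes of -1.59 for Dntt (adjusted p = 0.255) and -1.14 for Rag1 (adjusted p = 0.311). Both were also lost without KO mouse 301 (adjusted p = 0.249 and 0.211) and without KO mouse 304 (0.224 and 0.187), and that of Dntt without WT mouse 300 (0.194) and in DESeq2 (0.118).

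Of the B lineage members, Cd79a, Vpreb1, Igll1 and Pax5 shared an order of WT mice in MEP, with mouse 309 highest and mouse 305 lowest. This order was not particular to them, as Cd79b, Dntt, Il7r and Rag1 had it too. Cd79a was at 0.425, 0.117 and 1.56 TPM, Vpreb1 at 0.467, 0.138 and 1.03 TPM, Igll1 at 0.393, 0.0838 and 1.30 TPM and Pax5 at 0.0932, 0.0663 and 0.338 TPM in WT mice 300, 305 and 309. All 4 were too low to judge, with up to 66 estimated counts in mouse 309 but 0 to 9 in the KO libraries. Without WT mouse 305, the lowest of the WT mice in each of them, all 4 entered the fit and were called lower. They entered it through the other WT mice, so nothing is read from these calls. Dntt, Rag1 and Cd79b were called lower too, for 7 calls in place of 2, beside 32.8% of 16351 genes called.

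Il7r was at 0.336, 0.188 and 1.0 TPM in WT and 0.180, 0.241 and 0.723 TPM in KO MEP and was not called (log2 fold change -0.41, 95% interval -1.79 to 0.97). Rag2, at 0.166 to 0.516 TPM in WT and 0.288 to 0.441 TPM in KO, differed by -0.17 (95% interval -1.0 to 0.66). Ebf1, at 0.118 to 0.304 TPM in WT and 0.0342 to 0.141 TPM in KO, and Cd79b, at 0.737 to 1.78 TPM in WT and 0.508 to 1.07 TPM in KO, were not called. Of 6 members tested in MEP, 2 were lower and none higher, beside 29.4% of 15777 genes called.

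**Figure D2:**
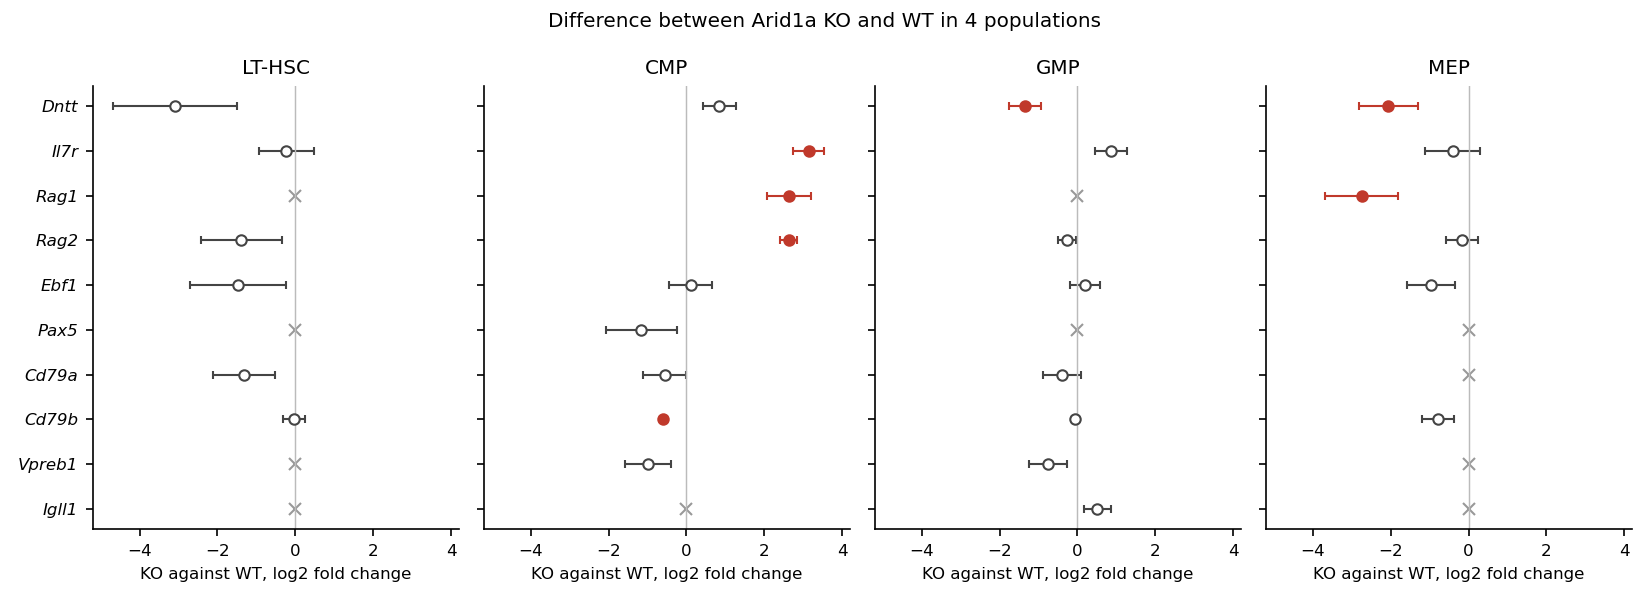
Log2 fold change of KO against WT (horizontal axis; bars, SE) for the 10 genes in LT-HSC, CMP, GMP and MEP; filled red points are past an FDR of 0.1, open points are not, and a grey cross at 0 marks a gene too low to judge. Il7r (3.14), Rag1 (2.64) and Rag2 (2.63) are the genes to the right of 0 with a call, all in CMP.

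LT-HSC cells gave no called member, beside 0.0792% of 22733 genes (18 genes) called over the whole population, with 1180 genes at an unadjusted p under 0.05 in edgeR; DESeq2 also called no member. Of the 6 members that could be tested, none had an unadjusted p under 0.05. With 2 mice a genotype the intervals were wide: that of Rag2 ran from -3.43 to 0.65 and that of Il7r from -1.60 to 1.14 on the log2 scale.

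Cd79b had its highest levels here, at 51.9 and 45.0 TPM in WT mice S245 and S269 and 37.4 and 43.8 TPM in KO mice S244 and S270. Cd79a was at 19.8 and 8.35 TPM in WT and 1.22 and 7.67 TPM in KO LT-HSC, above every precursor library except for KO mouse S244, which was below WT MEP mouse 309. Il7r was at 1.91 and 4.80 TPM in WT and 1.84 and 3.19 TPM in KO. Dntt was at 1.5 and 4.05 TPM in WT, at 0.593 TPM in KO mouse S244 and at 0 in KO mouse S270, where none of its reads was counted.

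The library WT S245 held nearly all signal of several other members. Rag1 had 102.0 estimated counts there and at most 2.0 in the other 3 libraries. Rag2 was at 3.25 TPM in WT S245 and 0.401 to 0.682 TPM elsewhere, and Ebf1 at 2.67 TPM against 0.238 to 0.333 TPM. The 2.39 TPM of Pax5 in WT S245 came from 26.0 estimated counts, of which 5.6 were on a Pax5 transcript model of 324 bases that held 1.66 TPM, so this TPM value overstates how many reads were seen. Without WT S245 the log2 fold changes of Rag2 and Ebf1 turned from -1.39 to 0.38 and from -1.47 to 0.63. The log2 fold change of Dntt was then -3.67. Without KO S244, Dntt is compared with the library at 0 alone.

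Without WT S269, the log2 fold change of Cd79a in KO LT-HSC was -1.77, against S245 alone. In each of these fits 1 library stood alone in its genotype and was assumed to vary like those of the other genotype, so no call is read from them. Markers of mature lymphoid cells differed between the same libraries. The summed level of 15 B cell markers was 183 TPM in WT S245 and 2290 to 7950 TPM in the other 3 LT-HSC libraries. The T cell marker Cd3e was at 3.66 to 18.4 TPM in LT-HSC and at most 0.0977 TPM in any precursor library. The part of such cells in the LT-HSC levels of the members was not tested.

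Beside the CMP result, B cell markers summed to 258 to 347 TPM in WT and 301 to 534 TPM in KO CMP, of which Ighm alone was 105 to 197 TPM and 195 to 390 TPM. Cd3e was at most 0.0977 TPM in either. Of the 12 B cell markers tested, 3 were higher (Blk, Cd72 and Ighd) and 2 lower (Igkc and Vpreb3), beside 23.4% of all genes called in either direction. T and NK cell markers summed to 181 to 260 TPM in WT and 144 to 170 TPM in KO CMP, and plasmacytoid dendritic cell markers to 276 to 438 TPM in WT and to a median of 292 and at most 344 TPM in KO. Plasma cell markers were at 141 to 240 TPM and 116 to 144 TPM. Of the 7 tested, 1 was higher and 3 were lower in KO, with Jchain and Igha among the lower.

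Beside the MEP values, B cell markers summed to 76.4, 50.6 and 41.1 TPM in WT mice 300, 305 and 309 and to 20.0 to 49.0 TPM in KO mice. Igkc alone was at 22.4 to 62.7 TPM in WT and 10.5 to 29.7 TPM in KO MEP. Of the 10 B cell markers tested, 0 were higher and 0 lower in KO MEP, with a median log2 fold change of 0.13. T and NK cell markers summed to 19.3, 13.3 and 20.7 TPM in the same WT mice and to 6.39 to 12.2 TPM in KO mice. Of the 7 tested, 4 were lower in KO MEP, beside 29.4% of all genes called. In GMP, 2 of 11 B cell markers tested were lower and none higher, beside 33.9% of all genes called. T and NK cell markers summed to 653 to 868 TPM in WT and 951 to 1110 TPM in KO GMP. In all precursor libraries Cd3e was at most 0.0977 TPM and the T cell receptor gene Trac at most 0.198 TPM, so these sums are no measure of T cells. The part of cells with any of these markers in the results on the members was not tested.

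The differences between populations in WT mice were read from a single fit of all 18 precursor libraries in which the mouse was a blocking term. Dntt fell from CMP to MEP to GMP, with means of 48.0 ± 24.7, 9.31 ± 6.38 and 1.0 ± 0.139 TPM (SD, n = 3 each). Each neighbouring step passed the test: MEP was lower than CMP by a log2 fold change of -2.06 (SE 0.50, edgeR adjusted p = 0.00223) and GMP lower than MEP by -3.38 (SE 0.60, adjusted p = 0.000197). WT GMP was 43.5-fold below WT CMP.

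Rag1 had the order MEP, CMP, GMP, with means of 0.568 ± 0.672, 0.187 ± 0.0606 and 0.0234 ± 0.0141 TPM (SD, n = 3 each). WT GMP had 3 to 10 estimated counts, too low to judge, and Rag1 entered the fit through the other populations, so no test against GMP is given. The step between MEP and CMP, at 1.33 (SE 0.45, edgeR adjusted p = 0.0191), was lost without WT mouse 309 (0.46, adjusted p = 0.413), and WT MEP mouse 305 lay below all WT CMP mice.

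Il7r was at 0.827 ± 0.246 TPM in WT CMP, 0.509 ± 0.434 TPM in WT MEP and 0.107 ± 0.0362 TPM in WT GMP (SD, n = 3 each). CMP and MEP did not differ beyond their spread (log2 fold change -0.55, edgeR adjusted p = 0.225), though without WT mouse 309 MEP was called lower (-1.19, adjusted p = 0.0344). GMP was lower than MEP (-2.28, adjusted p = 0.000749) and than CMP (-2.82, adjusted p = 0.000221).

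Rag2 parted from Rag1 in the WT precursors. Its level was 1.71 ± 0.141 TPM in CMP and 1.65 ± 0.288 TPM in GMP (SD, n = 3 each), which did not differ beyond their spread (log2 fold change 0.10, edgeR adjusted p = 0.732). MEP, at 0.398 ± 0.200 TPM, was lower than CMP by -1.36 (adjusted p = 0.000106), and GMP higher than MEP by 1.46 (adjusted p = 4.99e-05).

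Cd79b separated the MEP from both other WT populations. It was at 31.5 ± 0.294 TPM in GMP and 27.9 ± 1.47 TPM in CMP, and 16.2-fold below the CMP level in MEP at 1.41 ± 0.585 TPM (log2 fold change -4.02, SE 0.23, edgeR adjusted p = 2.93e-09). GMP and CMP were not called apart (adjusted p = 0.176), except without WT mouse 305 (adjusted p = 0.0471). Igll1 was at 1.27 ± 0.270 TPM in GMP, 0.636 ± 0.467 TPM in CMP and 0.592 ± 0.632 TPM in MEP (SD, n = 3 each). It was too low to judge in CMP and MEP and entered the fit through GMP, so no test between these levels is given.

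Ebf1 was lower in WT GMP than in WT MEP (log2 fold change -1.59, edgeR adjusted p = 0.0269), a call lost without WT mouse 309 (adjusted p = 0.252). Pax5, with 2 to 5 estimated counts in WT GMP, was too low to judge in GMP and MEP. Cd79a and Vpreb1 did not differ past the threshold between WT GMP and WT CMP. Both were too low to judge in MEP, so the lack of a call against MEP is not read. Over the WT precursor populations the means were 0.355 to 0.700 TPM for Cd79a and 0.546 to 0.839 TPM for Vpreb1. Counted over the 10 members, 4 were called between WT GMP and WT CMP, 4 between WT MEP and WT CMP and 8 between WT GMP and WT MEP, beside 45.2%, 70.6% and 70.7% of 18523 genes. Of these calls, Rag1 and Igll1 in the first and Rag1, Pax5 and Igll1 in the last were of genes too low to judge in 1 or both populations. These 3 contrasts share their libraries.

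Across all 4 populations, the order of mean WT levels differed from gene to gene. LT-HSC had the highest WT mean of Il7r (3.35 TPM), Ebf1 (1.45 TPM), Pax5 (1.19 TPM), Cd79a (14.1 TPM) and Cd79b (48.5 TPM), though for Ebf1 this is the mean of 2.67 TPM in S245 and 0.238 TPM in S269 and for Pax5 that of 2.39 TPM and 0. CMP had the highest of Dntt and Vpreb1, GMP that of Igll1 and MEP that of Rag1. The Rag1 mean in MEP is that of 0.285, 0.0838 and 1.34 TPM. Vpreb1 in CMP was near its GMP level, at 0.839 ± 0.499 against 0.752 ± 0.185 TPM (SD, n = 3 each). For Rag2 the WT means of LT-HSC, CMP and GMP lay at 1.85, 1.71 and 1.65 TPM, of which the first is the mean of 3.25 and 0.444 TPM. No test was made between LT-HSC and precursors.

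**Figure D3:**
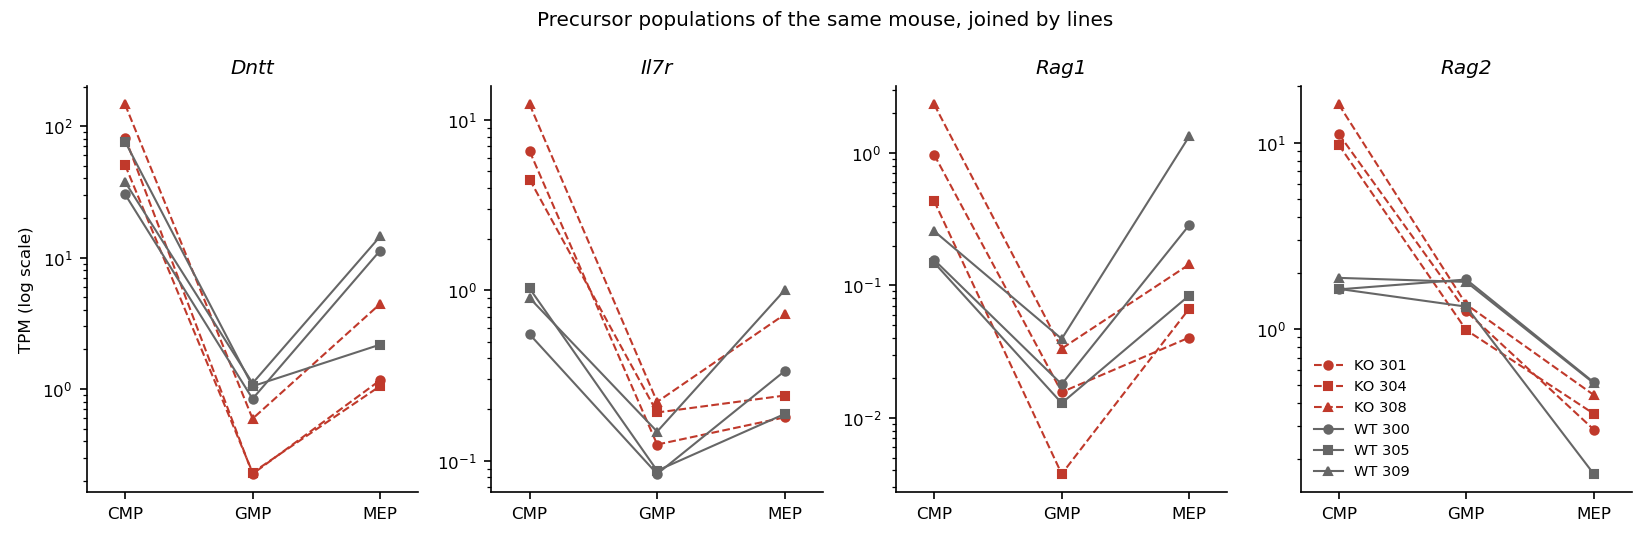
TPM on a log axis of Dntt, Il7r, Rag1 and Rag2 in CMP, GMP and MEP cells, with the libraries of 1 mouse joined by a line (grey solid, WT; red dashed, KO; the marker gives the mouse). The red lines of Il7r and Rag2 start above the grey ones in CMP and meet them in GMP and MEP, and the 3 WT lines of Rag1 fan out in MEP from 0.0838 to 1.34 TPM.

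Whether the effect of the deletion differed between populations was tested as an interaction in the same fit. For Rag2 the KO effect in GMP was below that in CMP (estimate -2.83 on the log2 scale, SE 0.28, edgeR adjusted p = 2.61e-05), and so was that in MEP (estimate -2.74, SE 0.32, adjusted p = 0.000124). For Il7r the estimates were -2.14 (SE 0.66, adjusted p = 0.0414) in GMP and -3.47 (SE 0.53, adjusted p = 0.000962) in MEP, both relative to CMP. For Rag1 the estimate in MEP was -4.71 (SE 0.65, adjusted p = 0.000505), and none is read for GMP, where it had 1 to 10 estimated counts.

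The Rag2 interactions were called in every alternative run. For Il7r the comparison of GMP with CMP missed the threshold without WT mouse 300 (adjusted p = 0.120), WT mouse 309 (0.114), KO mouse 301 (0.121) or KO mouse 308 (0.124), and without the mouse as a block (0.130).

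The KO effect on Dntt in MEP was below that in CMP (estimate -3.05, SE 0.73, edgeR adjusted p = 0.0173), a call lost without KO mouse 301 (adjusted p = 0.107) or WT mouse 309 (0.139). Between GMP and CMP its estimate of -2.26 was not called (adjusted p = 0.167), though it was without WT mouse 305 (adjusted p = 0.000178). The KO MEP libraries held Igll1 at 0, 0 and 0.128 TPM, too low to read an interaction from. The members called were 3 of 10 between GMP and CMP, 4 of 10 between MEP and CMP and 1 of 10 between GMP and MEP, beside 21.0%, 13.1% and 26.8% of 18523 genes. These counts include Rag1 in the first and Igll1 in the last, each too low to judge in 1 of the populations compared. The first and the second of these comparisons share the CMP libraries.

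Genes that work with the members were followed as lists, whose counts stand beside 23.4% of all genes called in CMP, 33.9% in GMP and 29.4% in MEP, in either direction. Where a list's share is near these, the count is no result about the list. In the list for the IL-7 receptor pathway, 12 genes without Il7r itself, 3 were higher and none lower in KO CMP. The kinase gene Pim1 and the feedback inhibitor Cish were higher. So was Flt3, on the list though it encodes the receptor of another cytokine, one needed for lymphoid progenitors. Flt3 was at 161 ± 33.2 against 78.4 ± 9.06 TPM (SD, n = 3; log2 fold change 0.94, edgeR adjusted p = 0.00284). The share of 3 in 12 is near the 23.4% of all genes. The chain that pairs with the product of Il7r, encoded by Il2rg, was lower in KO GMP (log2 fold change -0.52, adjusted p = 0.0172) and KO MEP (-0.50, adjusted p = 0.0429). In GMP 3 of the 12 were higher and 2 lower, and in MEP 2 were higher and 4 lower, among them Stat5a and Stat5b, the transcription factors downstream of the receptor. Pim1 was higher in KO in all 3 precursor populations (log2 fold changes 0.75, 1.10 and 0.99). The list had a median of 0.05 in CMP, of -0.09 in GMP and of -0.07 in MEP, beside -0.00, -0.01 and -0.00 for all genes.

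The 12 other genes of recombination and end joining changed little in CMP. There 3 were higher and 1 lower, with log2 fold changes of 0.33 for the nuclease gene Dclre1c (Artemis), 0.41 for the Ku subunit gene Xrcc5, 0.17 for Hmgb2 and -0.26 for the polymerase gene Poll. None came near the 2.63 of Rag2. In GMP 5 were higher and 1 lower, led by Xrcc5 (14.2 ± 1.76 against 6.08 ± 0.991 TPM; SD, n = 3; log2 fold change 1.38, edgeR adjusted p = 8.67e-05). In MEP 3 were higher and 4 lower.

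Of 22 lymphoid transcription factor genes, 21 were tested in CMP, with 6 higher and 1 lower, beside 23.4% of all genes called. The higher were Bach2 (0.78), Notch1 (0.49), Foxo1 (0.41), Bcl11a (0.39), Ikzf1 (Ikaros, 0.32) and Tcf3 (E2A, 0.30), in log2 fold changes, and the lower was Gfi1 (9.53 ± 1.37 against 17.8 ± 2.87 TPM; SD, n = 3; log2 fold change -0.99, edgeR adjusted p = 0.000739). In GMP 2 of 20 were higher and 8 lower, with Ikzf3 (Aiolos) at 0.375 ± 0.138 against 2.26 ± 0.804 TPM and Satb1 at 8.75 ± 2.41 against 23.5 ± 3.69 TPM. In MEP 3 of 19 were higher and 4 lower, and Bach2 was at 4.72 ± 0.853 against 1.03 ± 0.215 TPM (log2 fold change 2.33, adjusted p = 6.19e-05).

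In the pre-B cell receptor pathway, 14 genes beside the members, the 13 tested in CMP were split, with 4 higher and 4 lower. The adaptor gene Blnk, at 3.93 ± 1.82 against 0.900 ± 0.433 TPM (SD, n = 3; log2 fold change 1.89, edgeR adjusted p = 0.0151), the kinase gene Blk (2.46, adjusted p = 0.0110) and the coreceptor gene Cd72 (1.13, adjusted p = 0.00860) were among the higher ones. The kinase genes Syk, Lyn and Btk, which myeloid cells also use, were among the lower ones (log2 fold changes -0.34, -0.19 and -0.17). In GMP 8 of 12 were higher and 1, Cd72, was lower (-1.43, adjusted p = 0.00258). In MEP 6 of 12 were lower and none higher, among them Blnk (-1.74, adjusted p = 0.0209) and Pik3cd (-1.39, adjusted p = 4.91e-05).

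Of the 14 genes of lymphoid primed progenitors, 7 were higher and none lower in KO CMP, among them Il12a (1.0), Flt3 (0.94), Lsp1 (0.53), Notch1 (0.49), Ramp1 (0.40) and Bcl11a (0.39), in log2 fold changes, beside 23.4% of all genes called in either direction. Of these, Flt3, Notch1 and Bcl11a were also counted in the lists above. The median of the list was 0.32 in CMP, beside -0.00 over all genes. In GMP 2 of 12 were higher and 5 lower, with Cd27 at 46.0 ± 2.73 against 99.6 ± 5.50 TPM (SD, n = 3; log2 fold change -0.97, edgeR adjusted p = 3.7e-05), and in MEP 1 of 12 was higher and 1 lower, beside 33.9% and 29.4% of all genes called. In LT-HSC no gene of these lists was called, at list medians between -0.02 and 0.29.

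**Figure D4:**
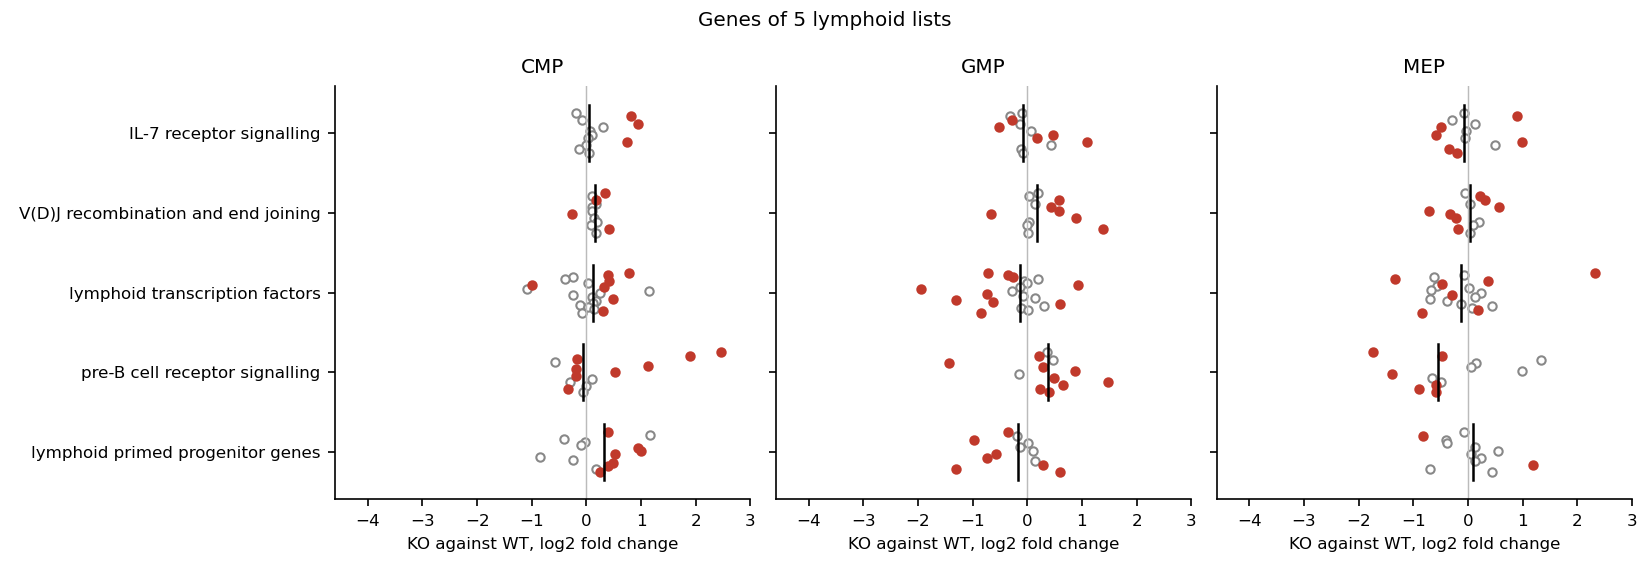
Log2 fold change of KO against WT for each tested gene of 5 lymphoid lists, in CMP, GMP and MEP (filled red, past an FDR of 0.1; open grey, not; black bar, median of the list). In CMP the red points of the lymphoid primed progenitor genes all lie right of 0, while those of pre-B cell receptor signalling lie on both sides.

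Lineage genes of the same gates moved too. In KO CMP 5 of 8 GMP identity genes were lower and none higher, with Mpo (log2 fold change -1.38) and Ctsg (-2.23) among them, and 4 of 8 MEP identity genes were higher and 2 lower, beside 23.4% of all genes called. In KO GMP 7 of 8 GMP identity genes were higher, beside 33.9%. Of 10 LT-HSC identity genes, 3 were higher (Mecom, Slamf1 and Mllt3) and 2 lower (Procr and Fgd5) in KO CMP. The part of a shift in the makeup of the CMP gate in the levels of Il7r, Rag1 and Rag2 was not tested.

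The genes whose levels ran most like those of a member over the 18 precursor libraries were named by Pearson's r of log2(TPM + 0.1), among 15637 genes and for the 6 members with a mean of at least 1 TPM in a precursor group. These values describe libraries that share mice, populations and genotypes. Rag1 ran most like Hexdc (0.907), Blnk (0.907) and Il7r (0.889), and so was the member that had another member among its nearest 5. Rag2 ran most like Cd5 (0.959), Ralgps1 (0.954) and Pirb (0.954), Il7r most like Sdc4 (0.945), Tmem121 (0.936) and Gimap7 (0.934), and Dntt most like Il17ra (0.976), Slc26a11 (0.970) and Gimap6 (0.962). Cd79b ran most like BC035044 (0.996), Anxa5 (0.995) and Tlr2 (0.994), and Igll1 most like Dnajc12 (0.886). Between members, r was 0.536 for Rag1 with Rag2, 0.749 for Il7r with Rag2 and 0.693 for Rag2 with Cd79b.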

How the data were processed

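RNA-seq of 22 libraries was analysed (18 precursor libraries of 6 mice and 4 LT-HSC libraries of 4 mice). Paired-end reads of 100 bp were assigned by the authors with kallisto 0.43.1 to the mouse transcripts of Ensembl 84 (GRCm38/mm10), and they deposited, for each transcript, an estimated count, which need not be whole, a TPM value and an effective length. LT-HSC cDNA was made with a SMART-Seq v4 kit and precursor libraries from poly-A RNA with TruSeq.

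Of 115088 transcripts, 114200 (99.2%) were matched to genes of GENCODE vM21, and at most 0.363% of the counts of a library lay on unmatched ones. Estimated counts and TPM were summed per gene, and the counts rounded to whole numbers. KO and WT were compared within each population by edgeR 4.0.16 in R 4.3.3 (TMM normalization, filterByExpr, quasi-likelihood test) with the genotype as the only term. Contrasts of WT populations and interactions came from 1 fit of 18 libraries with the mouse as a block, since the labels give the same mouse for all 3 populations. The deviations of the same mouse in any 2 populations correlated at r = 0.024 to 0.584. A standard error is the size of the log2 fold change over the square root of F, and 95% intervals are 1.96 SE on either side. The factor 1.96 takes no account of how few the mice are, so these intervals are too short and hold less than 95%. Those of Dntt in CMP and Il7r in GMP leave out 0 at unadjusted p of 0.0738 and 0.0642 in edgeR. A gene was too low to judge where it did not pass filterByExpr in that fit, and near absent under 0.1 TPM in both genotypes; 3 counts were taken as the floor. The interval of a log2 fold change covers the spread between mice, while a low count adds counting error only within 1 library. With 3 mice against 3, an exact two-sided permutation test of 1 gene cannot go below p = 0.1, so a call depends on edgeR's pooling of the spread over genes.

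The rule for named genes was: all 10 members in every library, and of 5 lists of lymphoid genes the up to 3 largest rises and falls past an FDR of 0.1 with a mean of at least 1 TPM, of which those beyond the list counts are given; other list genes were named after their values were seen. For likeness, the 5 genes with the highest r were taken for each member. The members and the gene lists were chosen with earlier results of these data known. The alternatives were no filter for low counts, median-of-ratios size factors, a mean of at least 1 TPM, an offset for effective gene length, DESeq2 1.42.0, a replicate block, 1 fit of all 18 precursor libraries, and each library left out in turn. The fits were tested on simulated data. The ATAC-seq and ChIP-seq data were not used here. The levels of 2 list genes are not reported here.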

Additional observations from a re-analysis of the deposited data

Results flagged for a closer look

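The interaction test across 18 precursor libraries called Il7r, Rag1, Rag2, Dntt and Igll1 in at least 1 comparison of populations. Of the 10 members, 3 were called between GMP and CMP, 4 between MEP and CMP and 1 between GMP and MEP. Over all genes tested, 21.0%, 13.1% and 26.8% were called. The values are differences of log2 fold changes, KO against WT, with edgeR's adjusted p. Relative to CMP, the effect in GMP was -2.14 for Il7r (adjusted p = 0.0414), -2.60 for Rag1 (adjusted p = 0.0876) and -2.83 for Rag2 (adjusted p = 2.61e-05). Relative to CMP, the effect in MEP was -3.05 for Dntt (adjusted p = 0.0173), -3.47 for Il7r (adjusted p = 0.000962), -4.71 for Rag1 (adjusted p = 0.000505) and -2.74 for Rag2 (adjusted p = 0.000124). Relative to MEP, the effect in GMP was 3.84 for Igll1 (adjusted p = 0.0306). Rag1 was too low to judge in GMP and Igll1 in MEP, and each entered the fit through the other populations, so nothing is read from their 2 values of -2.60 and 3.84. The comparison of GMP with CMP for Il7r was lost in 5 alternatives. The 3 KO mice lay above the 3 WT mice in CMP for Il7r, Rag1 and Rag2, and overlapped with them in GMP and MEP.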

How the results depend on the processing

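The 4 calls in KO CMP (Il7r, Rag1, Rag2 and Cd79b) were made in every alternative. With a library left out, 4 to 6 members were called there, through Dntt and Igll1, beside 15.3% to 21.7% of all genes. The single call in KO GMP was lost with a mean of at least 1 TPM (0 members called, since fewer genes were tested, beside 36.9% of all genes). It was also lost in 1 fit of 18 libraries (0 called, beside 32.3%). With a library left out, 0 to 1 members were called, beside 24.6% to 32.3%. In KO MEP the 2 calls became 6 with no filter for low counts (beside 16.2% of all genes) and 1 with a mean of at least 1 TPM (beside 33.3%). DESeq2 called 5, beside 17.0% of all genes: Rag1, Pax5, Cd79a, Vpreb1 and Igll1, without Dntt. Of these, all but Rag1 were too low to judge in the main fit. In 1 fit of 18 libraries 7 were called (beside 26.6%), and with a library left out 0 to 7 (beside 18.7% to 32.8%). In LT-HSC a fit with a library left out keeps 1 library of a genotype, so its calls are not counted. Leaving out 1 mouse gave 1 to 5 members called for the interaction of GMP with CMP, beside 13.6% to 19.3% of all genes. For that of GMP with MEP it gave 0 to 5, beside 20.2% to 23.5%, and DESeq2 called 3, beside 15.9%. The causes were not tested.

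With the mouse block removed, 1 member in place of 3 was called for the interaction of GMP with CMP, beside 17.6% of all genes. For KO against WT, a replicate block was also run on pairs of WT and KO mice. The pairs came from the column order of the study's tables and not from the labels. In GMP this gave 2 members called in place of 1 (Il7r was added at an adjusted p of 0.0988), beside 43.7% of all genes. In LT-HSC, CMP and MEP it gave the main number, beside 0.506%, 31.3% and 33.3%. The deviations of the paired mice correlated at 0.329 to 0.516 in CMP and 0.431 to 0.55 in GMP, but at -0.002 for 1 of the pairs in MEP, so the pairing was not taken as given.

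Of 1006 log2 fold changes of single members under alternatives, 905 kept their direction and side of the threshold, 37 lost a call, 28 gained one and 36 turned in sign, all of the last for values that were not called. Away from left-out libraries, those that turned were Cd79b in LT-HSC (0.009 with no filter for low counts), Pax5 in WT MEP against CMP (-0.383 with the length offset) and Ebf1 in the interaction of GMP with CMP (0.099 with no block). With libraries left out, KO against WT in LT-HSC ran from -0.81 to 0.77 for Il7r, -2.19 to 0.38 for Rag2, -2.31 to 0.63 for Ebf1 and -0.20 to 0.17 for Cd79b. It ran from -0.20 to 0.74 for Ebf1 in CMP, -0.14 to 0.027 for Cd79b in GMP, and -1.33 to 0.54 for Il7r and -0.53 to 0.058 for Rag2 in MEP. WT GMP against CMP ran from -0.007 to 0.30 for Rag2 and -0.19 to 0.76 for Vpreb1. WT MEP against CMP ran from -1.19 to 0.059 for Il7r, -0.13 to 0.75 for Pax5, -0.34 to 1.09 for Cd79a and -0.45 to 0.47 for Igll1, and WT GMP against MEP from -1.24 to 0.26 for Cd79a. The interaction of GMP with CMP ran from -0.69 to 0.36 for Ebf1, -0.62 to 2.46 for Pax5, -0.53 to 0.78 for Cd79a and -0.69 to 0.55 for Vpreb1, that of MEP with CMP from -0.56 to 0.071 for Cd79b, and that of GMP with MEP from -0.29 to 0.09 for Rag2. Genes under 30 counts in most precursor libraries (Ebf1, Pax5, Cd79a, Vpreb1 and Igll1) allow only large differences to be seen.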
